A study of Mus musculus with 16 samples.

Results

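The nuclear receptor superfamily was followed in cells washed from mouse airways, through 46 genes of 54532 in the deposited tables. The members were chosen by name: each is a row of the count and FPKM tables whose gene name belongs to a list of the family, and all 46 names were found. The rule uses no measured value, although the family was picked with earlier results of these data known. Nuclear receptors are transcription factors that bind DNA, and many of them are switched by small lipid-soluble ligands such as steroids, thyroid hormone, retinoic acid, vitamin D, oxysterols and fatty acids. Many bind DNA as a pair with a retinoid X receptor (RXR), the steroid receptors pair with themselves, and the so-called orphans have no established hormone. In the lung, PPAR gamma (Pparg) is known as a transcription factor that resident alveolar macrophages need in order to form, and the glucocorticoid receptor (Nr3c1) is the target of inhaled steroids.

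The mice were C57BL/6 according to the design text (the sample labels spell the strain C56BL/6J), of both sexes and aged 8-10 weeks, and the cells were taken on day 14 after oropharyngeal dosing. The groups were bleomycin males, bleomycin females, saline males and saline females, with 4 libraries each. Bleomycin, a DNA-damaging agent used to injure the lung and bring on fibrosis, was given at 4 U/kg of body weight. The lavage cells were not described as sorted, so that each library is a mixture of cell types. Each library carries its own code and was taken as 1 animal, which the labels do not state, and p-values measure only the spread between these libraries. The codes also divide by treatment, with C33, C49, C50 and C65 to C69 under bleomycin and C70 to C77 under saline. Whether the codes mark separate runs is not given in the labels. If they do, run and treatment cannot be told apart. The library totals ran between 21240382 and 24225885 counts in bleomycin males, 18871879 and 24567609 in bleomycin females, 16471022 and 19207944 in saline males, and 16385784 and 21393539 in saline females.

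The mixture of cell types differed between the treatments. Level here means the mean of log2(CPM + 1) over a marker list, where CPM is the count scaled to the library total. Counts of markers that rose or fell are from the average of the sexes unless a sex is named. All 12 monocyte and monocyte-derived macrophage markers rose, with levels of 7.4-7.93 in bleomycin males against 2.83-3.21 in saline males, and 7.28-7.64 in bleomycin females against 2.78-3.03 in saline females. All 14 T cell markers rose, with levels of 4.22-5.48 in bleomycin males against 0.366-0.554 in saline males, and 3.92-5.4 in bleomycin females against 0.282-0.369 in saline females. Of 12 resident alveolar macrophage markers, 9 fell and 1 (Fabp4) rose on average, with 9 down and 1 up in males and 6 down and 0 up in females. Their level was 7.88-8.33 in bleomycin males against 9.44-9.7 in saline males, and 7.99-8.62 in bleomycin females against 9.72-9.77 in saline females. Each of these ranges was apart from its saline counterpart (exact permutation test, two-sided, p = 0.0286, the smallest that 4 against 4 libraries allow). All tested markers of NK and cytotoxic cells (8), B and plasma cells (7) and dendritic cells (9) also rose, as did 5 of 6 of fibroblasts and endothelium. Of 7 neutrophil markers 5 rose and 1 (Csf3r, -0.50) fell, of 11 epithelial markers 8 rose and 2 (Krt19, -2.15, and Epcam, -2.66) fell, and of 3 of eosinophils, mast cells and basophils 2 rose and 1 fell. The levels of these lists were also apart from saline in each sex at p = 0.0286 by the same exact test, apart from the last list in females (p = 0.0571). Markers at or near 0 CPM in saline libraries, such as Ly6c2, Cd3e, Cd79b, Gzmb, Col1a1 and Il5ra, passed the low-count filter only through bleomycin libraries. A rise in such markers was largely set by the filter, and the levels of all lists rest on the same tested markers. Ncr1, Ly6g, Col1a1, Prg2, Il5ra, Mcpt8 and Fcer1a had 0 counts in all saline libraries, and Fcer1a had 0 in all bleomycin libraries too. The neutrophil marker Ly6g had counts in the bleomycin library C66 alone, and Mcpt8 in C49 and C50 alone. Ngp and Camp, also on the neutrophil list, were near 0 under both treatments and were not tested. These shifts run alongside every bleomycin result below, and their part in those results was not tested: in bulk RNA, fewer cells of a type and less RNA per cell cannot be told apart.

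Of the 46 members, 37 had at least 1 count and 9 had 0 counts in all 16 libraries. The 9 were Rorb, Nr1h4 (the bile acid receptor FXR), Hnf4g, Nr2e1, Nr2f1, Esr2 (estrogen receptor beta), Nr5a1, Nr5a2 and Nr0b1. For each of these, a count of 0 over the 16 libraries allows up to 0.00938 CPM, which covers counting error only. A further 11 members were detected but fell short of the low-count filter and were not tested. Among them Rarb, a retinoic acid receptor, had 22 counts over the 8 bleomycin libraries and 43 over the 8 saline libraries, and the orphan receptor Nr2f2 had 38 and 18 counts in the same order. Ppara, the fatty acid sensor best known from liver, had 5 counts in all, every one of them in the bleomycin female library C69. The other 8, Nr1i2, Nr1i3, Hnf4a, Rxrg, Nr2e3, Esrrb, Pgr and Nr0b2, had between 1 and 20 counts over all 16 libraries. This left 26 members with a test: none of the HNF4 receptors and none of the NR5 and NR0 receptors passed, and all 3 of the NR4A receptors did.

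Levels were compared between members by the deposited FPKM, which divides by gene length. Summed over the members, FPKM came to 262.2-329 in the bleomycin libraries and 377.8-418.9 in the saline libraries, with no overlap. The members held 0.108-0.1341% of all counts in bleomycin libraries and 0.1833-0.2049% in saline libraries. This share rests on plain count totals and the FPKM do not, so that these measures are on unlike scalings. Rxra, the partner of many of the others, was the highest member under both treatments, at 67.5 ± 7.05 FPKM in bleomycin and 90.1 ± 10.2 FPKM in saline libraries (SD, n = 8 each). It made up 20.7-26.27% of the members' summed FPKM in bleomycin and 20.24-26.08% in saline libraries, ranges that overlap almost entirely. Pparg came next, at 42.2 ± 9.06 FPKM in bleomycin and 64.6 ± 4.28 FPKM in saline libraries.

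The order of the levels below Rxra and Pparg differed between the treatments. In saline libraries the third was Rara at 44.7 ± 4.71 FPKM, with a lowest library (40.0) above the highest of Nr1h2 (32.2), and the lowest Pparg library (57.8) lay above the highest of Rara (51.2). In bleomycin libraries Rara was 7th at 16.1 ± 1.84 FPKM, within the spread of its neighbours Esrra (18.4 ± 1.59) and Rxrb (15.9 ± 1.05). The following members in saline libraries were Nr1h2 at 30.4 ± 1.11, Esrra at 28.8 ± 3.77, Nr3c1 at 25.8 ± 1.35, Nr1h3 at 23.9 ± 1.94 and Rxrb at 21.0 ± 1.57 FPKM, and each of them overlapped the next over the 8 libraries. Nr4a3 was 11th in bleomycin libraries at 7.60 ± 1.64 FPKM and 20th in saline libraries at 1.13 ± 0.461 FPKM. Esr1 was the lowest of the 26 tested members in saline libraries, at 0.00848 ± 0.00865 FPKM, against 0.272 ± 0.0478 FPKM in bleomycin libraries.

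**Figure D1:**
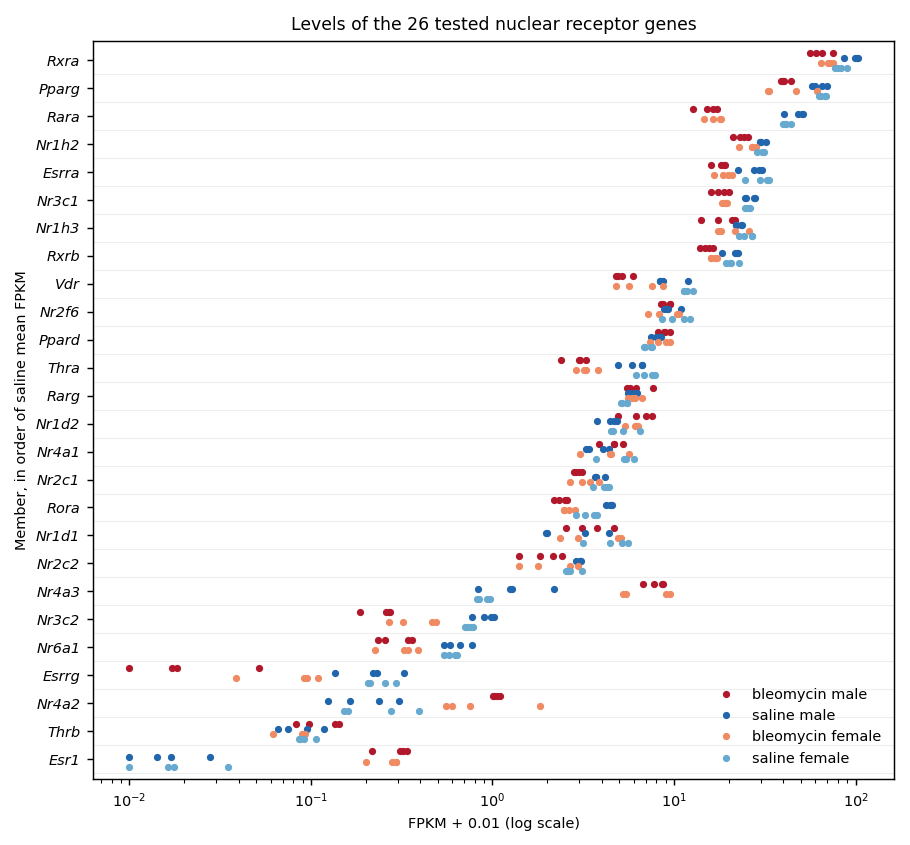
Deposited FPKM plus 0.01 on a log axis for the 26 tested nuclear receptor genes, 1 row a gene in order of the saline mean, 1 point a library in 4 groups (bleomycin and saline, male and female). Rxra is highest throughout, Rara lies between 12.8 and 18.2 FPKM in bleomycin libraries against 40.0 to 51.2 in saline libraries, and Nr4a3, Nr4a2 and Esr1 lie to the right of their saline points in bleomycin libraries.

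Bleomycin against saline, averaged over the sexes, shifted most of the tested members, and more of them down than up. At an adjusted p below 0.05 (edgeR quasi-likelihood test, Benjamini-Hochberg over 15257 genes), 21 of 26 members (80.8%) were called, against 63.6% of all genes tested. Of these, 16 members (61.5%) fell, against 28.8% of all genes, and 5 (19.2%) rose, against 34.7% of all genes. The median change of the tested members was -0.36 on the log2 scale, beside 0.01 over all genes tested. In 13 of 26 members (50%) the 8 bleomycin libraries did not overlap the 8 saline libraries, against 29.5% of all genes, and 8 members changed at least 2-fold, against 23.4% of all genes. The low-count filter took in Esr1 through its bleomycin libraries and Esrrg through its saline libraries, so that a difference in these 2 genes was largely set by the filter. CPM of members below are scaled by edgeR's TMM factors, and every adjusted p is from edgeR's test unless another test is named.

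**Figure D2:**
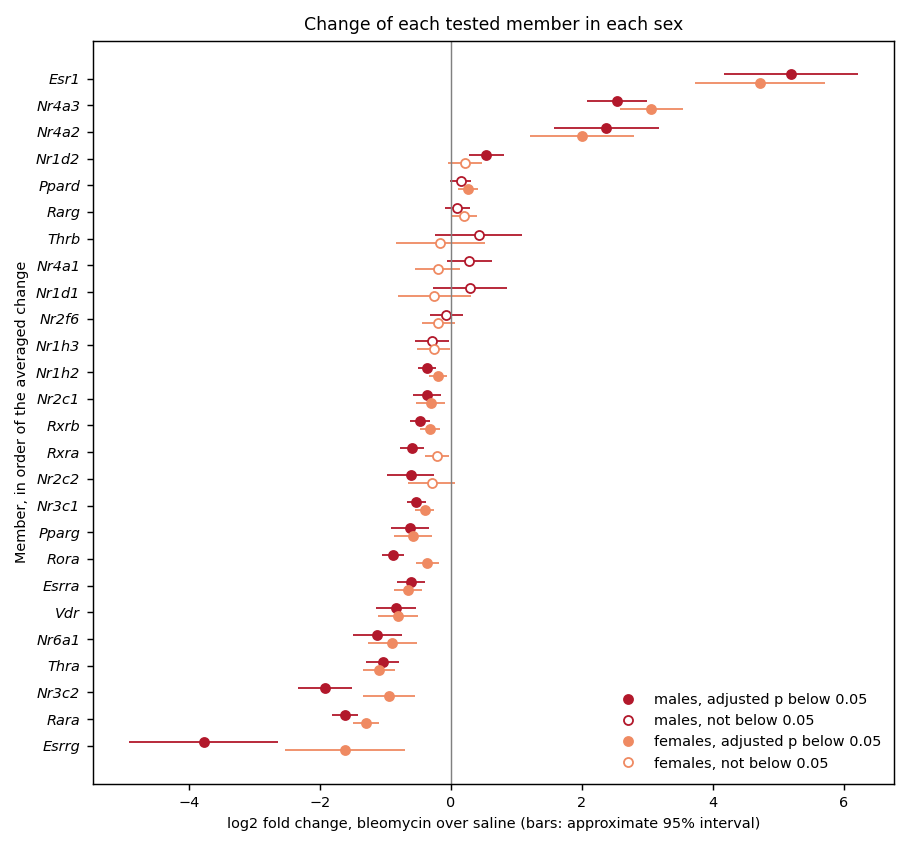
Log2 fold change of bleomycin over saline in males and in females for the 26 tested nuclear receptor genes, with bars for the approximate 95% interval, filled where the adjusted p is below 0.05. Esr1, Nr4a3 and Nr4a2 lie above 2 in both sexes, and Rara, Thra, Nr6a1, Nr3c2 and Esrrg are the lowest, from -0.89 to -3.77.

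The retinoic acid receptors, which pair with RXR and switch genes on retinoic acid, differed from one another. Rara (ENSMUSG00000037992, chr11:98927818-98974942, GRCm38) had 72.3, 56.5, 76.2 and 66.6 CPM in bleomycin males, against 223.0, 210.3, 177.7 and 222.9 CPM in saline males. In females it had 72.2, 64.0, 81.2 and 80.9 CPM under bleomycin, against 174.8, 194.5, 182.5 and 179.5 CPM under saline. Every bleomycin library was below every saline library, by a wide gap. The averaged change was -1.46 (SE 0.07, adjusted p = 4.43e-12), that is 2.74-fold lower in bleomycin. Rarg, the gamma form, had a lowest, median and highest value of 23.7, 25.8 and 33.2 CPM in bleomycin libraries, against 21.8, 23.7 and 26.6 CPM in saline libraries, and did not pass the test (0.15, 95% interval 0.01 to 0.29, adjusted p = 0.068). Without the bleomycin male C33 it passed (0.18, adjusted p = 0.030).

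The thyroid hormone receptors also split. Thra had 11.1, 15.2, 14.0 and 14.0 CPM in bleomycin males, against 30.8, 22.8, 27.1 and 30.9 CPM in saline males. In females Thra had 15.2, 13.3, 15.02 and 18.1 CPM under bleomycin, against 28.4, 34.9, 31.7 and 36.3 CPM under saline. No library of the treatments overlapped, and the averaged change was -1.07 (SE 0.09, adjusted p = 7.90e-09), 2.1-fold lower in bleomycin. Thrb was near the limit of detection, at 0.390-0.984 CPM in bleomycin and 0.413-0.801 CPM in saline libraries, and its change of 0.13 (SE 0.24) did not pass. The 3′ end of Thra overlaps Nr1d1 on the opposite strand of chromosome 11 over 1075 bases. Whether the authors' counting used strand is not given in the sources used here, so that reads in this stretch cannot be assigned to either gene with certainty.

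The RXR genes encode the shared partners of the retinoid, thyroid, vitamin D, PPAR and LXR receptors, and both tested ones fell. Rxra had 417, 336, 311 and 357 CPM in bleomycin males, against 542, 473, 556 and 566 CPM in saline males. In bleomycin females it had 355, 387, 421 and 404 CPM, against 492, 459, 424 and 436 CPM in saline females. The groups were well apart in males, while in females the highest bleomycin library lay just under the lowest saline library. The averaged change was -0.40 (SE 0.07, adjusted p = 3.98e-05), with -0.59 (adjusted p = 3.87e-05) in males and -0.21 in females, where it did not pass (adjusted p = 0.079). In females Rxra passed with DESeq2's Wald test (adjusted p = 0.036) and when any of the bleomycin males C33, C65 or C66 was left out (adjusted p = 0.046, 0.04985 and 0.044). It also passed in females with a stricter low-count filter (adjusted p = 0.042) and with only the female libraries fitted (adjusted p = 0.041). Rxrb had a lowest, median and highest value of 52.4, 60.3 and 64.95 CPM in bleomycin libraries, against 68.2, 78.8 and 84.4 CPM in saline libraries, without overlap (-0.39, SE 0.05, adjusted p = 5.17e-06).

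The lipid-sensing receptors moved apart from one another. Pparg had 118, 121, 116 and 131 CPM in bleomycin males, against 206, 177, 172 and 194 CPM in saline males. In females it had 98.6, 98.6, 185 and 142 CPM under bleomycin, against 191, 201, 187 and 203 CPM under saline. Within the bleomycin females the library C68 stood close to the saline values, and the others did not. The averaged change of Pparg was -0.60 (SE 0.10, adjusted p = 6.69e-05), 1.51-fold lower in bleomycin. Ppard, the broadly expressed PPAR, had a lowest, median and highest value of 57.2, 67.1 and 72.4 CPM in bleomycin libraries, against 51.2, 56.7 and 64.2 CPM in saline libraries. It rose by a small amount, 0.21 (SE 0.06, adjusted p = 0.0039), and this call rests on the scaling: by library totals alone the change was -0.0014. The same totals place the median of all genes at -0.20 in place of 0.01, so that relative to it Ppard stays above.

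The liver X receptors, which bind oxysterols and switch on cholesterol efflux genes, both fell in the average of the sexes. Nr1h2 (LXR beta) had a lowest, median and highest value of 71.5, 83.8 and 95.2 CPM in bleomycin libraries, against 96.8, 102.2 and 108 CPM in saline libraries, without overlap (-0.28, SE 0.05, adjusted p = 0.00012). Nr1h3 (LXR alpha) had 36.0, 49.4 and 66.7 CPM in bleomycin libraries, against 55.3, 59.1 and 67.8 CPM in saline libraries, with overlap (-0.27, SE 0.09, adjusted p = 0.015). With TMM scaling and all 16 libraries fitted, Nr1h3 passed in the average of the sexes but in neither sex, with an adjusted p of 0.069 in males and 0.117 in females. With only the male libraries fitted it passed in males (adjusted p = 0.045). With the bleomycin libraries C33, C67 or C68 left out it passed in males (adjusted p = 0.041, 0.036 and 0.041), and with C65 or C68 left out in females (adjusted p = 0.048 and 0.018). Vdr, the vitamin D receptor, had 27.9, 27.3, 33.9 and 29.2 CPM in bleomycin males, against 46.9, 67.7, 49.6 and 47.3 CPM in saline males. In females Vdr had 27.5, 31.9, 49.8 and 43.9 CPM under bleomycin, against 71.8, 66.7, 64.5 and 64.1 CPM under saline. Each sex was without overlap, and the averaged change was -0.82 (SE 0.11, adjusted p = 3.30e-06), 1.77-fold lower in bleomycin.

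**Figure D3:**
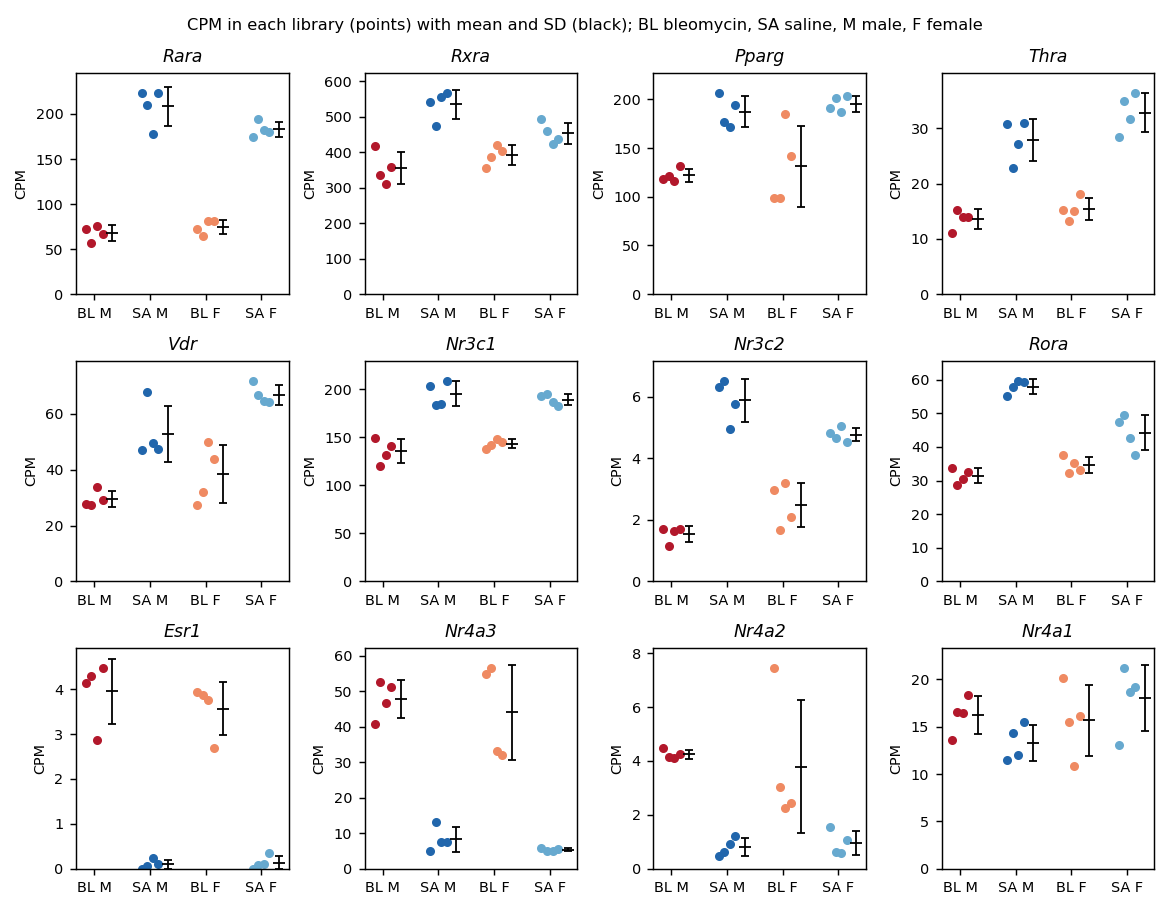
TMM-scaled CPM of 12 nuclear receptor genes, 1 point a library, with the group mean and SD (n = 4) in black beside the points; BL is bleomycin, SA saline, M male and F female. Rara lies between 56.5 and 81.2 CPM in bleomycin libraries against 174.8 to 223.0 in saline libraries, Nr4a3 between 32.1 and 56.6 against 4.88 to 13.1, and Nr4a1 overlaps.

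Among the steroid receptors, the glucocorticoid and mineralocorticoid receptors fell and estrogen receptor alpha rose. Nr3c1, which binds cortisol-type hormones and represses many inflammatory genes, had 150, 120, 132 and 141 CPM in bleomycin males, against 203, 183, 185 and 209 CPM in saline males. In females Nr3c1 had 138, 142, 148 and 145 CPM under bleomycin, against 193, 195, 186 and 182 CPM under saline. The treatments did not overlap, and the averaged change was -0.46 (SE 0.05, adjusted p = 3.59e-07), 1.38-fold lower in bleomycin. Nr3c2, the mineralocorticoid receptor that binds aldosterone, was far lower in level, with 1.70, 1.15, 1.64 and 1.70 CPM in bleomycin males, against 6.30, 6.52, 4.95 and 5.76 CPM in saline males. In females Nr3c2 had 2.97, 1.68, 3.18 and 2.09 CPM under bleomycin, against 4.83, 4.65, 5.04 and 4.54 CPM under saline. It was lower in every bleomycin library, with an averaged change of -1.43 (SE 0.15, adjusted p = 1.15e-07), 2.69-fold lower in bleomycin.

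Esr1 (ENSMUSG00000019768, chr10:4611593-5005614, GRCm38), estrogen receptor alpha, was close to absent in saline libraries. It had 95, 82, 58 and 100 counts in bleomycin males, against 0, 1, 5 and 2 counts in saline males. In females it had 81, 92, 72 and 44 counts under bleomycin, against 0, 2, 2 and 6 counts under saline. Every bleomycin library was above every saline library, and the sexes overlapped under both treatments. The fitted change was 4.95 (SE 0.36, adjusted p = 1.14e-09), on a saline total of 18 counts over 8 libraries, against 624 counts over the 8 bleomycin libraries. By mean FPKM it was 24th of the 26 tested members in bleomycin libraries and 26th in saline libraries, and Esr2, the beta form, had 0 counts throughout. Many of the marker lists above were lower in saline and rose in the same libraries. They include the T cell, monocyte, NK and cytotoxic, B and plasma cell and dendritic cell lists. The neutrophil, epithelial, and fibroblast and endothelial lists are also among them. The part of these cell types in the rise of Esr1 was not tested.

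The estrogen-related receptors, orphans known for driving mitochondrial genes together with PGC-1 coactivators, fell. Esrra had a lowest, median and highest value of 40.9, 48.2 and 54.2 CPM in bleomycin libraries, against 57.1, 75.4 and 85.2 CPM in saline libraries, without overlap (-0.63, SE 0.08, adjusted p = 1.38e-06). Esrrg was scarce, with 6, 1, 0 and 1 counts in bleomycin males, against 15, 24, 40 and 27 counts in saline males. In females it had 11, 12, 12 and 3 counts under bleomycin, against 22, 29, 34 and 27 counts under saline. All bleomycin libraries were below all saline libraries, and the averaged change was -2.69 (SE 0.37, adjusted p = 5.36e-06). Esrra overlaps Trmt112 on the opposite strand over 73 bases, and the caution on strand holds for it.

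The NR4A receptors are orphans made within minutes of stimulation in many cells as immediate early genes, and 2 of the 3 rose. Windows of 250 bases before their RefSeq starts (GRCm38.p6) are shown because the genes share this mode of induction while differing here, and the capitals mark TGACG or its reverse complement CGTCA, the letters that open the cAMP response element. For Nr4a1 and Nr4a3 the RefSeq start lies inside the gene as drawn in the count table.
Nr4a3, chr4:48045055-48045304, plus strand: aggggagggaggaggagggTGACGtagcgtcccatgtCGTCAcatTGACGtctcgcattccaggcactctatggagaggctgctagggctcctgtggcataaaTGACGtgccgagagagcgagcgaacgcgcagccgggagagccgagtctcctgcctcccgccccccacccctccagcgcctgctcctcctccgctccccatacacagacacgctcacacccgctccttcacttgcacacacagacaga
Nr4a2, chr2:57124004-57124253, minus strand: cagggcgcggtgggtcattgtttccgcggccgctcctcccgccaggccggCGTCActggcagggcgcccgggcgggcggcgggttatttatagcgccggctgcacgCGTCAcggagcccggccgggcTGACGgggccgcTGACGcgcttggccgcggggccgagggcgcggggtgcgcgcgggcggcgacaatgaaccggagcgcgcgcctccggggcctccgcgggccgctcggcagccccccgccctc
Nr4a1, chr15:101266596-101266845, plus strand: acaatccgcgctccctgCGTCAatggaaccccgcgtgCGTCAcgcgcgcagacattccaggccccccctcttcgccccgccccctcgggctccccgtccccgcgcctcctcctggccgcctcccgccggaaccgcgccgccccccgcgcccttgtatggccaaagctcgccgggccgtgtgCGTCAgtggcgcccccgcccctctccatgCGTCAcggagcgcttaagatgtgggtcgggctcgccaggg
Each of the 3 windows held 4 matches, counting both strands, and none held AGGTCA or TGACCT, the core motif of many nuclear receptors. Of 32851 RefSeq windows of this length, 17.8% held TGACG on either strand at least once and 14% held AGGTCA at least once. How many of them held 4 matches was not counted, so these shares are not a background for that number. G and C made up 63.6% of the Nr4a3 window, 80.0% of the Nr4a2 window and 74.4% of the Nr4a1 window. Such a match is a run of letters and not a measured binding site.

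Nr4a3 had 40.8, 52.6, 46.7 and 51.3 CPM in bleomycin males, against 4.91, 13.1, 7.64 and 7.45 CPM in saline males. In females Nr4a3 had 54.8, 56.6, 33.1 and 32.1 CPM under bleomycin, against 5.77, 5.04, 4.88 and 5.56 CPM under saline. All bleomycin libraries were above all saline libraries, and the bleomycin females formed a higher and a lower pair. The pairs, C49 with C50 and C68 with C69, follow the library codes. Whether these codes mark separate runs of animals is not given in the labels and was not tested. The averaged change was 2.80 (SE 0.17, adjusted p = 7.51e-11), 6.96-fold higher in bleomycin. Nr4a2 had 4.49, 4.14, 4.12 and 4.25 CPM in bleomycin males, against 0.465, 0.629, 0.931 and 1.21 CPM in saline males. In females it had 7.45, 3.03, 2.24 and 2.45 CPM under bleomycin, against 1.55, 0.609, 0.578 and 1.08 CPM under saline. The treatments did not overlap, the library C49 was highest, and the averaged change of Nr4a2 was 2.19 (SE 0.29, adjusted p = 2.54e-06). Nr4a1, whose window holds as many TGACG matches, had 13.6, 16.5, 16.5 and 18.4 CPM in bleomycin males, against 11.5, 14.3, 12.0 and 15.5 CPM in saline males. In females Nr4a1 had 20.1, 15.6, 10.9 and 16.1 CPM under bleomycin, against 13.0, 21.2, 18.7 and 19.2 CPM under saline. The treatments overlapped in both sexes, and the averaged change was 0.04 (95% interval -0.20 to 0.28, adjusted p = 0.782).

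Of the clock receptors, Nr1d1 and Nr1d2 (REV-ERB alpha and beta) are heme-binding repressors, and Rora activates through the same DNA elements. Rora had 33.7, 28.8, 30.5 and 32.6 CPM in bleomycin males, against 55.0, 57.8, 59.7 and 59.2 CPM in saline males. In females Rora had 37.7, 32.3, 35.3 and 33.01 CPM under bleomycin, against 47.5, 49.5, 42.5 and 37.6 CPM under saline. The males were far apart and the females overlapped by 1 library, and the averaged change was -0.62 (SE 0.06, adjusted p = 7.68e-08). Nr1d2 had a lowest, median and highest value of 26.9, 33.9 and 41.3 CPM in bleomycin libraries, against 20.5, 25.1 and 35.2 CPM in saline libraries, and rose by 0.38 (SE 0.09, adjusted p = 0.0019). By library totals alone the change of Nr1d2 was 0.17 and did not pass (adjusted p = 0.111). Nr1d1 had 7.27, 10.7 and 16.1 CPM in bleomycin libraries, against 6.06, 11.7 and 17.2 CPM in saline libraries, and its change of 0.02 (SE 0.20) did not pass.

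Among the NR2 and NR6 orphans 3 of the 4 tested members fell. Nr6a1, known as a repressor in germ cells and the early embryo, had a lowest, median and highest value of 2.39, 3.56 and 4.14 CPM in bleomycin libraries, against 5.78, 6.46 and 8.32 CPM in saline libraries, without overlap (-1.01, SE 0.14, adjusted p = 3.55e-06). Nr2c1 had 12.4, 14.0 and 18.2 CPM in bleomycin libraries, against 16.5, 18.1 and 20.1 CPM in saline libraries (-0.34, SE 0.08, adjusted p = 0.0012). Nr2c2, its close relative, had 21.0, 29.9 and 44.6 CPM in bleomycin libraries, against 37.7, 44.0 and 46.4 CPM in saline libraries (-0.45, SE 0.13, adjusted p = 0.0056). Both overlapped between the treatments, and the bleomycin values of Nr2c2 spread more widely than its saline values. Nr2f6, a repressor in T cells, had 21.7, 27.3 and 32.5 CPM in bleomycin libraries, against 25.9, 28.2 and 36.8 CPM in saline libraries, and did not pass (-0.13, 95% interval -0.31 to 0.05). By library totals alone Nr2f6 was called down (-0.35, adjusted p = 0.00085), also within males (-0.30, adjusted p = 0.028) and within females (-0.39, adjusted p = 0.0068). Nr2c2 overlaps Mrps25 over 4770 bases and Nr2f6 overlaps Ocel1 over 5239 bases on the opposite strand.

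Within each sex the counts were close to those of the average. In males 19 of 26 members were called, 15 of them down and 4 up, against 56.5% of all genes called, 24.9% down and 31.5% up. In females 17 members were called, 13 down and 4 up, against 43.9% of all genes called, 17.2% down and 26.7% up. Bleomycin and saline libraries did not overlap for 20 members in males, against 54.4% of all genes, and for 17 in females, against 39.1%. Past 2-fold and called were 8 members in males, against 24.6% of all genes, and 6 in females, against 19.9%. Rara, Thra, Esrrg, Esr1, Nr4a2 and Nr4a3 were past 2-fold in both sexes, and Nr3c2 and Nr6a1 were so in males (-1.92 and -1.12, against -0.94 and -0.89 in females). In females the calls of Nr1h2 and Nr2c1 (adjusted p = 0.038 and 0.032) were lost when single libraries were left out. Both were also lost with no low-count filter (adjusted p = 0.076 and 0.052), and Nr2c1 with only the female libraries fitted (adjusted p = 0.057). Without the bleomycin library C69, Nr1h2 had an adjusted p of 0.069, and without the saline libraries C74, C75 or C77 it had 0.080, 0.090 or 0.071. Without the bleomycin libraries C49 or C50, Nr2c1 had an adjusted p of 0.091 or 0.056, and without the saline libraries C74, C75 or C76 it had 0.084, 0.063 or 0.079. Left out in turn, C49 brought in Nr2c2 (adjusted p = 0.037) and C74 brought in Nr1d2 (adjusted p = 0.048) among females. The call of Ppard in females (adjusted p = 0.012) was lost with no low-count filter (adjusted p = 0.078), with only the female libraries fitted (adjusted p = 0.062) and by library totals alone (adjusted p = 0.543). Nr1d2, Rxra and Nr2c2 were called in males alone and Ppard in females alone, but the test of that difference is the interaction below, which called none of them.

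Male against female was called for 0 of 26 members under saline, where edgeR called 0.269% of all genes, and for 0 of 26 under bleomycin, where it called 0.059%. At an unadjusted p below 0.05 there were 6 members under saline (Nr1d1, Nr4a1, Nr4a3, Rora, Rxra and Vdr), against 9.56% of all genes, and 4 under bleomycin (Esrrg, Nr1h2, Nr3c2 and Vdr), against 3.97%. Rora came closest: saline males, at 55.0 to 59.7 CPM, lay above saline females, at 37.6 to 49.5 CPM, with a difference of 0.39 (SE 0.09, adjusted p = 0.081). Rora was the single member that DESeq2's Wald test called there (0.39, adjusted p = 0.0044), and it also passed when only the saline libraries were fitted (adjusted p = 0.017), while limma voom called none. Under bleomycin its male minus female difference was -0.14 (SE 0.09), with 28.8 to 33.7 CPM in males and 32.3 to 37.7 CPM in females. Males and females did not overlap under saline for 2 members, Rora and Rarg, against 13.1% of all genes, and under bleomycin for 0 members, against 1.29%.

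For the tested sex and stress hormone receptors, and for Vdr, the sex differences were as follows. Nr3c2 differed by -0.67 between bleomycin males and females (95% interval -1.10 to -0.25), an interval apart from 0, but did not pass the adjusted test (adjusted p = 0.995). Between saline males and females Nr3c2 differed by 0.30 (95% interval -0.08 to 0.69). Esr1 differed by 0.14 between bleomycin males and females (95% interval -0.55 to 0.83), and by -0.32 between saline males and females (95% interval -1.83 to 1.19), on 8 and 10 counts. Nr3c1 differed by -0.08 between bleomycin males and females (95% interval -0.22 to 0.06) and by 0.05 between saline males and females (95% interval -0.10 to 0.19). The male minus female difference of Vdr was -0.37 (SE 0.16) under bleomycin and -0.34 (SE 0.15) under saline, and neither passed the adjusted test.

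The bleomycin effect was set against itself between the sexes by the interaction, the effect in males minus that in females. It was called for 0 of 26 members by edgeR, DESeq2 and limma voom, and for 0.00655% of all genes by edgeR. At an unadjusted p below 0.05 there were 5 members, Rora, Nr3c2, Rxra, Esrrg and Rara, against 7.88% of all genes. The interaction was negative for each of the 5, with -0.52 (SE 0.12, adjusted p = 0.346) for Rora and -0.97 (SE 0.29, adjusted p = 0.548) for Nr3c2. It was -0.38 (SE 0.13) for Rxra, -2.16 (SE 0.76) for Esrrg and -0.32 (SE 0.14) for Rara, so that the fitted fall was larger in males without passing the adjusted test. The within-sex effects of Rora were -0.88 (SE 0.09) in males and -0.36 (SE 0.09) in females.

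The bleomycin libraries varied among themselves, in cell markers and in members. Pparg, Vdr, Nr1h3 and Nr4a3 are given here, picked from the 26 after their values were seen. The bleomycin females C68 and C69 had the lowest T cell levels, 3.92 and 4.04, and the highest resident macrophage levels, 8.62 and 8.50, of the 8 bleomycin libraries. They also had the highest Pparg (185 and 142 CPM), Vdr (49.8 and 43.9 CPM) and Nr1h3 (66.7 and 56.3 CPM) and the lowest Nr4a3 (33.1 and 32.1 CPM). The male C65 had the highest T cell level, 5.48, and the lowest resident macrophage level, 7.88, beside 121 CPM of Pparg, 27.3 CPM of Vdr, 36.0 CPM of Nr1h3 and 52.6 CPM of Nr4a3. It was not the extreme library for each gene: C49 and C50 had less Pparg (98.6 CPM each) and more Nr4a3 (54.8 and 56.6 CPM). The male C33 came next after C68 and C69 in both marker orders, with a T cell level of 4.22 and a resident macrophage level of 8.33. Its Pparg (118.5 CPM) and Vdr (27.9 CPM) were near those of C65, while it had 52.9 CPM of Nr1h3 and 40.8 CPM of Nr4a3. These are values side by side in 8 libraries, and what sets them was not tested.

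**Figure D4:**
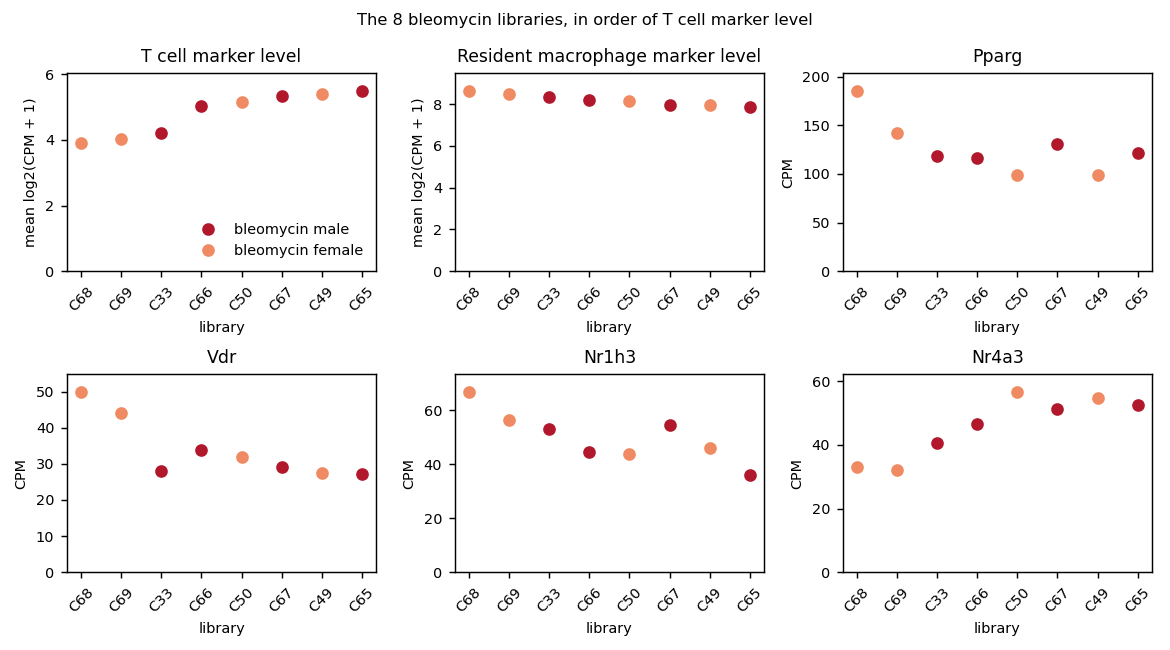
The 8 bleomycin libraries in order of their T cell marker level, with the levels of T cell and resident macrophage markers as mean log2(CPM + 1) and the TMM-scaled CPM of Pparg, Vdr, Nr1h3 and Nr4a3; dark points are males and light points females. C68 and C69, at the left, have the highest Pparg, Vdr and Nr1h3 and the lowest Nr4a3.

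Among the proteins that receptors recruit, more fell than rose in the average of the sexes. All counts of lists here are to be read beside the 28.8% of all genes that fell and the 34.7% that rose. Of 16 tested coactivators, which open chromatin for a receptor with bound ligand, 10 fell, 3 rose and 3 did not pass, with a median of -0.21. The most abundant were Ncoa4 (-0.32), the histone methyltransferase Nsd1 (-0.38), the acetyltransferase Ep300 (-0.24) and Ncoa3, which rose (0.27). Of 11 corepressors 6 fell, 3 rose and 2 did not pass, with a median of -0.35. Ncor1, a scaffold that holds histone deacetylase on receptors without ligand, fell (-0.40), and so did Nrip1 (-1.13). Tbl1xr1, a part of the same complex, rose by 0.16, a sign that turned under library totals alone. Of 9 chaperones that hold steroid receptors ready for hormone, 2 fell, 1 rose and 6 did not pass, among them Hspa8 (-0.09), Hsp90ab1 (-0.14), Hsp90aa1 (0.03) and Fkbp5 (-0.40). Under library totals alone 7 of the 9 chaperones were called down.

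Among enzymes and binding proteins that make or remove ligands, more rose than fell. Of 29 listed genes 17 were tested, and 10 of them rose, 2 fell and 5 did not pass, with a median of 0.62. Among those that rose were Hsd11b1, which regenerates active glucocorticoid, Aldh1a2, which makes retinoic acid, and Ch25h and Cyp27a1, which make oxysterols. Of the 4 most abundant, the retinaldehyde reductase Dhrs3 (-0.37) and the peroxisomal enzyme Hsd17b4 (-0.79) fell, Srd5a3 rose (0.23) and Hsd17b11 did not pass (0.06).

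Lists of known target genes did not move one way with their receptors. Of 19 PPAR targets 7 rose, 7 fell and 5 did not pass, with a median of -0.10. Lpl, a lipase, rose by 0.21 and changed sign under library totals alone, the fatty acid binding gene Fabp5 rose by 2.04, the mitochondrial carnitine transferase gene Cpt1a fell by 0.79, and Plin2 did not pass (-0.05). Under library totals alone 3 of these rose and 12 fell. Of 13 LXR targets 8 rose and 5 fell, with a median of 0.78: Apoe, which is also on the monocyte marker list, rose by 6.12 and Smpdl3a by 0.78, while the cholesterol exporter Abcg1 (-0.82) and the engulfment receptor Mertk (-0.23) fell. Of 13 glucocorticoid receptor targets 5 rose, 5 fell and 3 did not pass, with Sgk1 at 0.28, Tns1 at -1.02, Tsc22d3 at -0.57 and Fkbp5, which did not pass, at -0.40. Under library totals alone 4 of these 13 rose and 8 fell, with a median of -0.23.

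Of 18 clock genes 9 rose, 7 fell and 2 did not pass, with Bhlhe40 at 0.29, Bhlhe41 at 0.50 and Csnk1d, which did not pass, at 0.09. Under library totals alone 8 clock genes rose and 9 fell, and the median was -0.03 in place of 0.19. Of 16 targets of ERR and PGC-1, mostly mitochondrial, 8 rose, 2 fell and 6 did not pass, while under library totals alone 3 rose and 8 fell. Uqcrc1 rose by 0.21 with a sign that turned under totals alone, and Atp5b (-0.12) and Cs (0.10) did not pass. Of 6 tested retinoid and vitamin D targets, of 13 listed, 3 rose, 1 fell and 2 did not pass, with the T cell and dendritic cell integrin Itgae at 3.41, Dhrs3 at -0.37, Tgm2 at 0.03 and Cd14 at 0.22, these last not passing. Of 10 immediate early genes that are induced along with the NR4A receptors 5 rose, 4 fell and 1 did not pass, with Junb at 1.27, Fos at -0.55, Egr2 at -0.58 and Ier2, which did not pass, at -0.05. Under library totals alone 4 of these 10 rose and 5 fell, and the median was -0.08 in place of 0.13. Some genes stand on more than 1 of these lists, and all of them were measured in the same mixtures as the receptors.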

How the data were processed

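RNA sequencing counts of 16 lavage cell libraries were used. The tools named in the submitters' processing notes are featureCounts 1.5.0-p3, HISAT2 2.0.5, fastp 0.12.2 and, with no version, DESeq2; the builds named there are mm9 and mm10, without a role. The deposited counts are raw reads per gene, and their coordinates are those of GRCm38: 44 of the 46 members have identical coordinates in GENCODE M21. The FPKM were made by the authors and divide by gene length. The library total they divide by is not given in the sources used here. It is not the plain count total, because the ratio of FPKM to TMM-scaled CPM of Rxra was nearly constant over the libraries. Rxra had 75.5 FPKM beside 417 CPM in C33, and 99.5 FPKM beside 542 CPM in C70. The authors' own comparison tables were not used. Of all count columns, 0 were left without a sample.

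The 16 libraries entered a single edgeR 4.0.16 model with 4 group coefficients (quasi-likelihood F test, TMM, filterByExpr by group with a minimum count of 10, R 4.3.3). Benjamini-Hochberg adjustment ran over the 15257 genes that passed the filter, and a call means an adjusted p below 0.05. Standard errors are the log2 fold change divided by the root of F, and 95% intervals follow from them by the normal approximation. The floor for a count of 0 is 3 counts. Marker levels use a pseudocount of 1. Each marker list was compared by an exact permutation test over 70 arrangements within each sex. DESeq2 1.42.0 and limma 3.58.1 (voom) were alternatives, beside other scalings, filters and each library left out. The script for the fits was tested on simulated data. Replicates were checked for being the same library, and every pair differed by more than sampling noise (chi-square per gene from 4.497 to 70.55).

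All 46 members are accounted for, all 26 that passed the filter are named with values, and each list of related genes names up to 4 of its tested genes, those of highest mean CPM, with a few that the rule picks not reported here; the 4 ligand enzymes named for what they make (Hsd11b1, Aldh1a2, Ch25h and Cyp27a1) were added after their values were seen. The members and the lists were chosen with earlier results of these data known. Gene symbols come from the tables, and no member shares a symbol with another gene. Of the 46 members, 42 matched the RefSeq promoter table (GRCm38.p6).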

Additional observations from a re-analysis of the deposited data

Results flagged for a closer look

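In 104 groups of 4 libraries (26 members in 4 groups), 9 had a library whose gap to the nearest other, as a share of the group's range, was past the 95% critical value of Dixon's test for 4 samples. Chance alone gives about 1 in 20 such groups. Among bleomycin females, Nr4a2 was highest in C49 at 7.455 CPM (others 2.243 to 3.026), Thrb was lowest in C49 at 0.3898 CPM (others 0.5884 to 0.626), Nr1d2 was lowest in C50 at 29.12 CPM (others 33.7 to 34.49), and Esr1 was lowest in C69 at 2.7 CPM (others 3.756 to 3.946). Among bleomycin males, Nr3c2 was lowest in C65 at 1.153 CPM (others 1.637 to 1.701). Among saline males, Vdr was highest in C71 at 67.65 CPM (others 46.85 to 49.56), and Rxrb was lowest in the same library at 68.22 CPM (others 80.96 to 82.6). Nr2c1 was highest in C70 at 19.11 CPM (others 16.89 to 17.16), and Nr2f6 was highest in C73 at 32.66 CPM (others 26.45 to 27.51). What sets these libraries apart for these genes was not tested.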

How the results depend on the processing

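Of the 21 members called in the average of the sexes, 19 were called under all 22 alternatives, and Ppard and Nr1d2 under 21. The exception was scaling by library totals alone, which moved the median of all genes to -0.20, called 10724 genes with 34.7% of them up (9700 and 54.6% with TMM), gave 3 members up in place of 5, and turned Ppard to -0.0014. It also brought in calls down: Nr2f6 on average (-0.35, adjusted p = 0.00085) and in each sex, Nr1h3 in males and females (adjusted p = 0.0020 and 0.0050), and Rxra in females (adjusted p = 0.0014). Under saline, male against female gave 1 member up (Rora) with DESeq2's Wald test and 1 with only the compared groups fitted, against 0. The eosinophil, mast cell and basophil level in females passed (0.526, p = 0.0286, exact permutation test) when scaled by TMM. Leaving out 1 library at a time gave 16 members down and 5 to 6 up on average, 15 to 16 down and 4 up in males, 11 to 15 down and 4 to 5 up in females, 0 to 1 up and 0 down for male against female under saline (Rora passed without the bleomycin female C49, which shares the estimate of spread), and 0 in the other comparisons. Over all genes, male against female under saline gave 41 calls, 191 with DESeq2 and 119 with no filter; under bleomycin 9, and 14 with no filter; the interaction gave 1, 23 with DESeq2, 15 with no filter, and 0 with voom, the strict filter or totals alone. The causes were not tested. No paired analysis was possible because the groups share no animal codes. Depth limits Thrb, Esr1, Esrrg and the 20 members that were not tested.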
